A study of Homo sapiens with 4 samples.

Results

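The 10 genes described here lie at loci given as amplified in the gastric carcinoma line SNU-16, and were followed over 4 expression arrays. They are FGFR2, WDR11, ATE1, NSMCE4A and TACC2 on chromosome 10, MYC and PVT1 on chromosome 8, and CD44, PDHX and APIP on chromosome 11. Members were matched by the gene symbol of the array annotation or its alias. Of the 10 genes, 9 had a row, each with 1 probe set, out of 18417 named genes in all; PVT1, a long non-coding RNA gene beside MYC, was not matched to a row and is not analysed here. All 9 lay above the signal minimum of 5.64 that was set for testing.

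BalB/c nude mice received SNU-16 cells in the stomach, and human tumour cells were taken back from the stomach and from ovarian metastases. Cells recovered after round 1 were cultured for 7 days and implanted again, the stomach-derived line yielding a stomach tumour of round 2 and the ovary-derived line an ovarian metastasis of round 2. The groups are therefore stomach round 1, stomach round 2, ovary round 1 and ovary round 2, with 1 array each, all of the same cell line and host. Each site is 1 lineage followed over 2 rounds, with no replicate array of any group. The p-values between sites therefore set the difference against the spread between rounds, and those between rounds against the spread between sites. That spread may also be technical. The labels give no genotype change or drug for any group. All 4 samples are recorded as cell pellets. A culture time of 7 days is recorded for the round 1 samples and none for the round 2 samples. Whether culture time differed between rounds is therefore unknown. Its part in the round differences was not tested, as it cannot be told apart from round. No array of the parental line before implantation was analysed here. The titles were followed for the site of each sample, but 1 statement in the description of each round 2 sample conflicts with its title. The stomach sample is entered as cultured from ovary, and the ovary sample closes by placing its tumour in the stomach, while the rest of both texts follows the titles. The sign of every round 2 site difference rests on the titles.

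Gene amplification is the gain of many copies of a chromosome segment, in tandem within a chromosome or on small circles outside it, and transcripts of the segment are often abundant. FGFR2 encodes a receptor tyrosine kinase for fibroblast growth factors that signals through the MAPK and PI3K pathways, and its amplification is known from gastric cancer and from SNU-16. MYC encodes a transcription factor that binds DNA as a dimer with MAX and drives ribosome and nucleotide synthesis; SNU-16 is known to carry extra MYC copies as well. CD44 encodes the cell surface receptor for hyaluronan. The arrays measured RNA, not gene copies, so amplification itself was not measured.

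Values are log2 expression, 1 unit being a 2-fold difference. Array medians lay between 6.80 and 6.84 and values ran from 2.25 to 14.24. The epithelial identity of the line was visible in most of the markers. All 7 epithelial markers lay above the signal minimum on average, with a median of 11.65 to 12.01 on the 4 arrays. They ran from KRT20 at 5.28 to 6.96, under the minimum on the stomach round 2 array, up to KRT8 at 12.19 to 12.69. Markers of other cells had lower medians, though part of each list lay above the minimum. For fibroblasts 4 of 6 did, with an array median of 5.96 to 6.38, from DCN at 3.74 to 4.04 up to COL1A1 at 7.54 to 7.62. For leukocytes 3 of 6 did, with a median of 5.59 to 5.81, from PTPRC at 3.97 to 4.11 up to TYROBP at 7.38 to 7.48. For endothelium 2 of 4 did (median 5.36 to 5.55), and for mesothelium 3 of 3 with a row (median 6.45 to 6.66), MSLN reaching 7.89. Of 5 ovarian genes 3 were above the minimum, and the list median was 5.68 on the round 1 ovary array and 5.88 on the round 2 ovary array, against 5.68 and 5.72 in stomach.

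The sequences shown are those upstream of FGFR2 and CD44, around which 2 of the neighbour windows were laid, and of APIP. The APIP stretch overlaps that of PDHX, which is read from the opposite strand and is not printed. RefSeq promoter windows (GRCh38.p14) were found for 8 of the 10 genes, 17 windows in all, and the 250 bases upstream of the outermost start are given 5′ to 3′ on the gene's strand. Capitals mark the GC box GGGCGG or its complement CCGCCC, the element bound by SP1-type factors.
FGFR2, chr10:121598445-121598694, minus strand: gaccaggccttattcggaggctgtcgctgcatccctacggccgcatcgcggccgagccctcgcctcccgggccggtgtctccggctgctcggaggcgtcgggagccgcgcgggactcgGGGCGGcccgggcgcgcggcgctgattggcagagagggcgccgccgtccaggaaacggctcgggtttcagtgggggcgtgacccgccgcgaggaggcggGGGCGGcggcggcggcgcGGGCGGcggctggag
CD44, chr11:35138921-35139170, plus strand: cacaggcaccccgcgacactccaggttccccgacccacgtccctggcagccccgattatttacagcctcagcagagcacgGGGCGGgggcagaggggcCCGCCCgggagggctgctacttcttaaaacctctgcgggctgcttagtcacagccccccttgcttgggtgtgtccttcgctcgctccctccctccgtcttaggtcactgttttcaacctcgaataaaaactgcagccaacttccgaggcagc
APIP, chr11:34916380-34916629, minus strand: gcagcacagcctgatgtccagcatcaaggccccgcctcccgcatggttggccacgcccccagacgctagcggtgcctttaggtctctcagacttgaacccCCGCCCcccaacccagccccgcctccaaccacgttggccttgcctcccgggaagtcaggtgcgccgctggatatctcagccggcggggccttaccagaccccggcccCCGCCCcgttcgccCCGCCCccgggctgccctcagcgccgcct
The FGFR2 stretch held 3 GC boxes and 78.4% G and C, that of CD44 2 GC boxes and 62.4%, and that of APIP 3 GC boxes and 71.6%. GC boxes stood in 42.6% of all 35116 windows of this length. Of the 8 genes, 5 held a GC box in the outermost window, while WDR11, NSMCE4A and TACC2 held none there. The G and C share of all windows was not computed. The APIP start lay 59 and 239 bases from the 2 RefSeq starts of PDHX, which is read from the other strand. Of the 250 bases upstream of APIP, 58 are also upstream of the nearer PDHX start, the outermost one, and 238 of the more distant start. The MYC-MAX E-box CACGTG was searched on both strands and was in none of the 17 windows, against 6.34% of all windows. TATAAA was in a window of 1 of the 8 genes (10.7% of all windows), TACC2. CCAAT was found 1 time upstream of the outermost FGFR2 start (32.0% of all windows hold it). No overlap between the motifs was removed.

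The amplified-locus transcripts moved little between the arrays. The widest of the 9 ranges over the 4 arrays was 0.46, for MYC, and the narrowest 0.046, for FGFR2, with a median of 0.14 against 0.26 over all 14547 genes tested. Of the 9 genes, 7 had a range under that overall median. Genes with strong signals varied less in general: the 65 tested genes within 0.5 of the FGFR2 level had a median range of 0.16. Of the 9 members, 6 lay under the median of genes of like level. The others ranged more widely: MYC (0.46 against 0.19), APIP (0.28 against 0.22) and CD44 (0.13 against 0.12). Whether signals near the top of the scale understate differences was not tested.

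**Figure D1:**
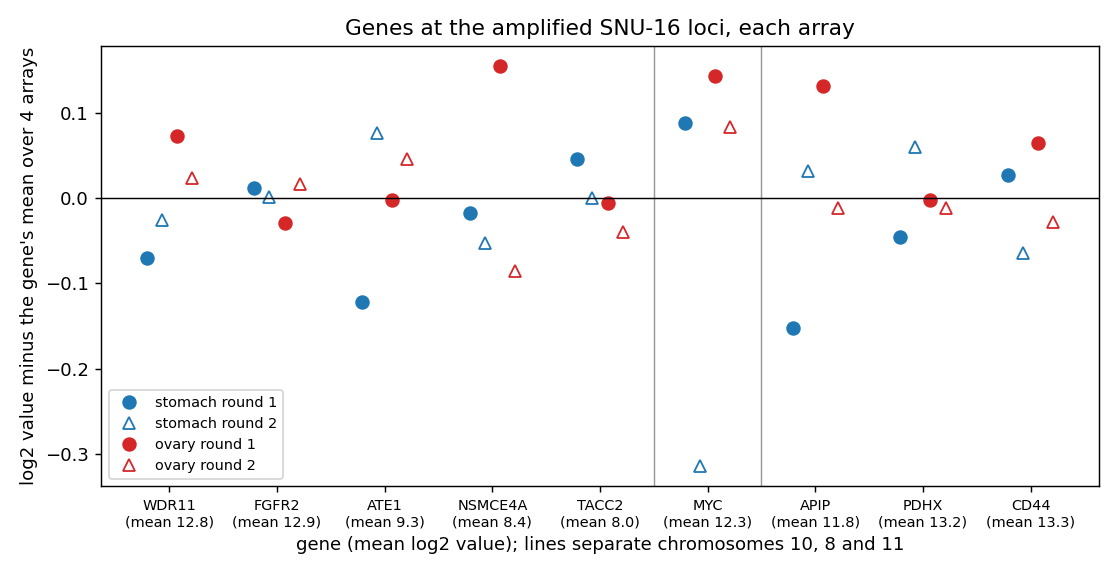
The log2 value of each gene on each array, minus the mean of that gene over the 4 arrays (vertical axis), for the 9 measured genes (horizontal axis, with the mean log2 value of each); circles are round 1, triangles round 2, blue stomach and red ovary, and each point is 1 array. All FGFR2 points lie within 0.046 of each other, while MYC ranges from 11.96 on the stomach round 2 array to 12.41 on the ovary round 1 array.

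FGFR2 (probe set 7936734) was level across sites and rounds. It stood at 12.94 on the stomach round 1 array, 12.93 on stomach round 2, 12.90 on ovary round 1 and 12.94 on ovary round 2. No array stood apart, and the sites and rounds overlapped. Its mean was 12.93 ± 0.0074 in stomach and 12.92 ± 0.033 in ovary (SD, n = 2 each). The fitted ovary minus stomach difference was -0.012 ± 0.087 (limma SE, adjusted p = 1.00) and the round 2 minus round 1 difference 0.018 ± 0.069 (limma, adjusted p = 0.908). Only 2.07% of the genes tested had a smaller range over the 4 arrays.

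WDR11 (probe set 7930996), a WD-repeat protein of a complex that tethers vesicles to the Golgi, lies next to FGFR2 among measured genes. Its values were 12.77 in stomach round 1, 12.81 in stomach round 2, 12.91 in ovary round 1 and 12.86 in ovary round 2. Both ovary arrays lay above both stomach arrays, by 0.14 in round 1 and 0.049 in round 2. The mean difference was 0.096 ± 0.088 (limma, adjusted p = 1.00), a factor of 1.07. Rounds overlapped, and their mean difference of -0.0020 ± 0.084 (limma, adjusted p = 0.993) turned positive under quantile normalization and median centring.

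ATE1 (probe set 7936762), the arginyltransferase that marks proteins for degradation, stood at 9.15 in stomach round 1, 9.35 in stomach round 2, 9.27 in ovary round 1 and 9.32 in ovary round 2. Stomach round 1 was the lowest array, and both round 2 arrays lay above both round 1 arrays. The round difference was 0.12 ± 0.079 (limma, adjusted p = 0.486), made up of 0.20 in stomach and 0.049 in ovary. The site difference was 0.044 ± 0.11 (limma, adjusted p = 1.00) and had opposite signs in the 2 rounds.

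NSMCE4A (probe set 7936777), a subunit of the SMC5/6 complex of genome maintenance, was highest in ovary round 1 at 8.53. The other arrays were close to each other, at 8.35 in stomach round 1, 8.32 in stomach round 2 and 8.28 in ovary round 2. The round 2 arrays lay below the round 1 arrays, with a difference of -0.035 in stomach and -0.24 in ovary. The fitted round difference was -0.14 ± 0.089 (limma, adjusted p = 0.489) and the site difference 0.069 ± 0.12 (limma, adjusted p = 1.00).

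TACC2 (probe set 7931031), a coiled-coil protein of the centrosome, gave 8.06 in stomach round 1, 8.02 in stomach round 2, 8.01 in ovary round 1 and 7.98 in ovary round 2. Both ovary arrays lay below both stomach arrays, the differences being -0.051 in round 1 and -0.040 in round 2. The site difference of -0.046 ± 0.087 (limma, adjusted p = 1.00) and the round difference of -0.040 ± 0.071 (limma, adjusted p = 0.793) were each smaller than their standard errors.

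MYC (probe set 8148317) was the member with the widest spread. Its values were 12.36 in stomach round 1, 11.96 in stomach round 2, 12.41 in ovary round 1 and 12.35 in ovary round 2. Stomach round 2 stood apart below the other arrays, which lay close together, and 84.4% of the genes tested had a smaller range than MYC. The sites overlapped, whereas both round 2 values lay below both round 1 values. Ovary was above stomach by 0.054 in round 1 and 0.40 in round 2, and round 2 differed from round 1 by -0.40 in stomach and -0.060 in ovary. The fitted site difference was 0.23 ± 0.16 (limma, adjusted p = 1.00) and the round difference -0.23 ± 0.15 (limma, adjusted p = 0.486). Without the stomach round 2 array they were 0.024 and -0.033, so the size of both rested on that array. If the site labels of the round 2 samples were exchanged, the site difference would be -0.17.

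CD44 (probe set 7939341) gave 13.37 in stomach round 1, 13.28 in stomach round 2, 13.41 in ovary round 1 and 13.32 in ovary round 2. Both round 2 arrays lay below both round 1 arrays, the differences being -0.092 in stomach and -0.093 in ovary, the most even round difference among the 9 genes. It amounted to -0.092 ± 0.070 (limma, adjusted p = 0.544), a factor of 1.07. The site difference was 0.037 ± 0.095 (limma, adjusted p = 1.00), with overlapping arrays, and was negative under quantile normalization.

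PDHX (probe set 7939329), the E3-binding component of the mitochondrial pyruvate dehydrogenase complex, stood at 13.11 in stomach round 1, 13.21 in stomach round 2, 13.15 in ovary round 1 and 13.14 in ovary round 2. Sites and rounds overlapped. The site difference was -0.015 ± 0.092 (limma, adjusted p = 1.00), with a positive value under quantile normalization, and the round difference 0.048 ± 0.073 (limma, adjusted p = 0.753).

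APIP (probe set 7947490), an enzyme of methionine salvage that also binds the apoptosis factor APAF1, gave 11.67 in stomach round 1, 11.85 in stomach round 2, 11.95 in ovary round 1 and 11.81 in ovary round 2. Stomach round 1 was the lowest array for APIP, as it was for PDHX and, on chromosome 10, for WDR11 and ATE1. APIP and PDHX share 58 or 238 of the 250 upstream bases, depending on the PDHX start. The highest array differed, being ovary round 1 for APIP and stomach round 2 for PDHX. Between sites APIP differed by 0.28 (ovary minus stomach) in round 1, but by -0.043 in round 2. The site difference was 0.12 ± 0.11 (limma, adjusted p = 1.00) and the round difference 0.020 ± 0.12 (limma, adjusted p = 0.939). Between rounds APIP differed by 0.18 in stomach and -0.14 in ovary, and PDHX by 0.11 and -0.0094.

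None of the 9 genes passed the test across all genes. With limma's moderated test and Benjamini-Hochberg adjustment, 0 of 9 were called between sites (0.0% of 14547 genes called) and 0 of 9 between rounds (0.0% called). At an unadjusted p under 0.05 the members gave 0 between sites, where all genes gave 2.6%, and 0 between rounds, where all genes gave 15.0%. Their unadjusted limma p ran from 0.218 to 0.893 between sites and from 0.184 to 0.982 between rounds. No gene, member or not, was called for the interaction of site and round (0.0% called). At an unadjusted limma p under 0.05 it gave 194 genes or 1.33%. The limma interaction of APIP was -0.33 ± 0.21 and that of MYC 0.34 ± 0.35. The interaction was fitted without site and round terms, so both effects are part of its standard errors. With 1 array per combination of site and round, the lack of calls cannot show whether an interaction exists. With standard errors of 0.087 to 0.16 between sites, differences of the size seen were not separable from the spread between arrays, and this does not show equal levels. An exact permutation of 2 arrays against 2 cannot give a two-sided p under 0.333.

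Directions were mixed. Of the 9 genes, 6 were higher and 3 lower in ovary on average, and 4 had the same sign of the site difference in both rounds (WDR11, MYC and CD44 higher in ovary, TACC2 lower). The arrays of the 2 sites did not overlap for 2 of 9 genes, a share near the 24.6% of all genes tested, with WDR11 higher in ovary (13.4% of all genes) and TACC2 lower (11.2%). The arrays of the 2 rounds did not overlap for 4 of 9 genes, against 49.0% of all genes. These were ATE1, higher in round 2 (22.2% of all genes), and NSMCE4A, MYC and CD44, lower in round 2 (26.8%). A single-array difference of at least 1.2-fold was seen for APIP between sites in round 1 (14.6% of all genes), for MYC between sites in round 2 (12.6%) and for MYC between rounds in stomach (20.8%). Between rounds in ovary 0 members reached it, where 23.0% of all genes did.

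**Figure D2:**
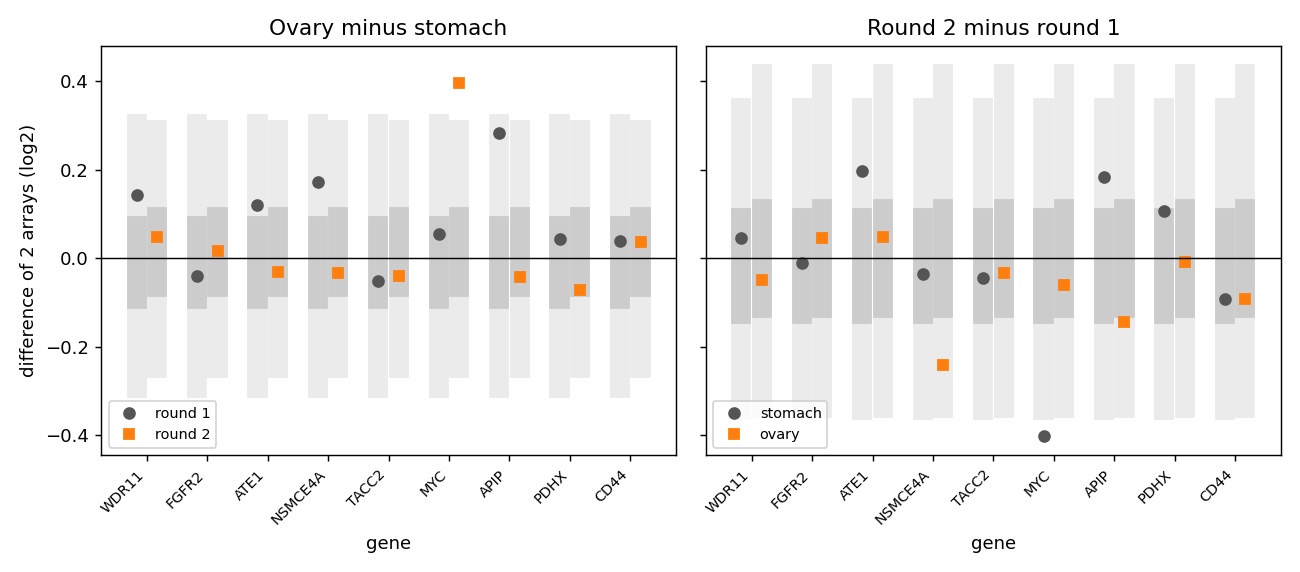
Differences between pairs of arrays (log2, vertical axis) for the 9 genes; the left panel gives ovary minus stomach in round 1 (grey circles) and round 2 (orange squares), the right panel round 2 minus round 1 in stomach (grey circles) and ovary (orange squares). Dark and light bars span the middle 50% and 90% of the 14547 genes tested; MYC lies outside the light bar between sites in round 2 (0.40) and between rounds in stomach (-0.40), and the other points lie within it.

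The 3 loci were next compared with their neighbours, the 10 measured genes on each side of FGFR2, MYC and CD44 in RefSeq gene order. Around FGFR2, 14 neighbours that are no members were above the signal minimum. Of these 5 were higher and 9 lower in ovary, with a median difference of -0.019, and 7 were higher and 7 lower in round 2, with a median of 0.0058. Their median range over the 4 arrays was 0.14. The furthest apart was PLEKHA1, a phosphoinositide-binding adaptor. It read 8.93 in stomach round 1, 9.26 in stomach round 2, 8.79 in ovary round 1 and 9.12 in ovary round 2, a round difference of 0.33 ± 0.093 (limma, adjusted p = 0.287). INPP5F, an inositol phosphatase, also had a positive round difference, 0.30 ± 0.074, and DMBT1, a secreted mucosal scavenger protein, a negative one, -0.19 ± 0.072, with limma adjusted p of 0.287 and 0.335.

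Around MYC, 17 neighbours were above the minimum, 11 higher and 6 lower in ovary (median 0.027). Of the 17, 8 were higher and 9 lower in round 2, with a median of -0.0034 that was positive under quantile normalization and median centring. POU5F1B, a retrogene of POU5F1 and the measured gene next to MYC, stood at 9.42 in ovary round 1 and at 8.44 to 8.51 on the other arrays. Ovary round 1 alone was high, and signal on its probes may be shared with the near-identical parent gene, which leaves the value uncertain. On the other side of MYC, the non-coding LINC02912 gave 7.15 in stomach round 1, 6.73 in stomach round 2, 7.33 in ovary round 1 and 6.95 in ovary round 2. Like MYC it was lower in round 2 at both sites, with differences of -0.42 in stomach and -0.37 in ovary (fitted difference -0.40 ± 0.12, limma, adjusted p = 0.289). MTSS1, an actin-binding protein, was 7.60 in stomach round 1 and 6.49 in stomach round 2, with 6.75 and 7.08 in ovary. TRIB1, a pseudokinase, stood apart in ovary round 2 at 11.10 against 10.36 to 10.50 elsewhere.

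Around CD44 the neighbours were less even than CD44, PDHX and APIP themselves. Of 15 neighbours above the minimum, 6 were higher and 9 lower in ovary. The median site difference was -0.31 in round 1 and 0.11 in round 2, where all genes tested had -0.0053 and 0.0076, and the median range over the 4 arrays was 0.63 against 0.26. A run of 6 consecutive measured genes on the far side of CD44 was low on the ovary round 1 array alone. TRIM44, a tripartite motif protein, read 9.31 there and 10.06 to 10.24 on the other arrays. LDLRAD3, a membrane receptor, read 11.38 to 11.63 elsewhere and was lower there, at a round 1 site difference of -0.63. COMMD9, of the COMMD family, read 9.32 against 9.92 to 9.96. PRR5L, a regulator of mTOR complex 2, read 9.65 against 10.14 to 10.51, and RAG1, the recombinase of antigen receptor genes, 6.54 against 7.39 to 7.67.

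TRAF6, a ubiquitin ligase of NF-kB signalling, had the largest round 1 site difference of the run. It stood at 10.25 in ovary round 1, against 11.29 in stomach round 1, 11.28 in stomach round 2 and 11.26 in ovary round 2. In round 1 the ovary minus stomach differences of the 6 genes ran from -1.05 to -0.60, with a median of -0.86 (1.81-fold), where 1.57% of all genes tested were at least 0.5 lower. In round 2 their differences lay between -0.22 and 0.16, with a median of 0.086. APIP, PDHX and CD44 differed in round 1 by 0.28, 0.043 and 0.038. SLC1A2, a glutamate transporter that directly follows CD44 in the measured order, was 0.38 higher in ovary in round 1. It stood at 11.96 in stomach round 1, 11.59 in stomach round 2, 12.35 in ovary round 1 and 11.71 in ovary round 2, lower in round 2 at both sites (-0.51 ± 0.15, limma, adjusted p = 0.290). ABTB2, on the other side of CD44, was higher in round 2 by 0.36 in stomach and 0.92 in ovary (0.64 ± 0.15, limma, adjusted p = 0.287). None of the neighbours of the 3 loci passed the limma test in either comparison. Of the 6 gastric and intestinal markers, all above the minimum, TFF1 (7.94 against 9.34 to 10.16) and TFF3 (10.91 against 11.41 to 12.15) were also lowest on that array. CDX1 was highest there at 8.23, and CDX2, VIL1 and LGALS4 lay within the range of the other arrays. The gastric and intestinal list median was 9.72 there and 10.38 to 10.82 elsewhere. Of the epithelial markers, EPCAM, CDH1, KRT8, KRT18, KRT19 and CLDN4 were also lowest on the ovary round 1 array, and KRT20 was highest. The epithelial median was 11.65 there and 11.90 to 12.01 elsewhere. The part of these marker differences in the result was not tested. The run was singled out after its values were seen, and the difference between it and the members was not tested.

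**Figure D3:**
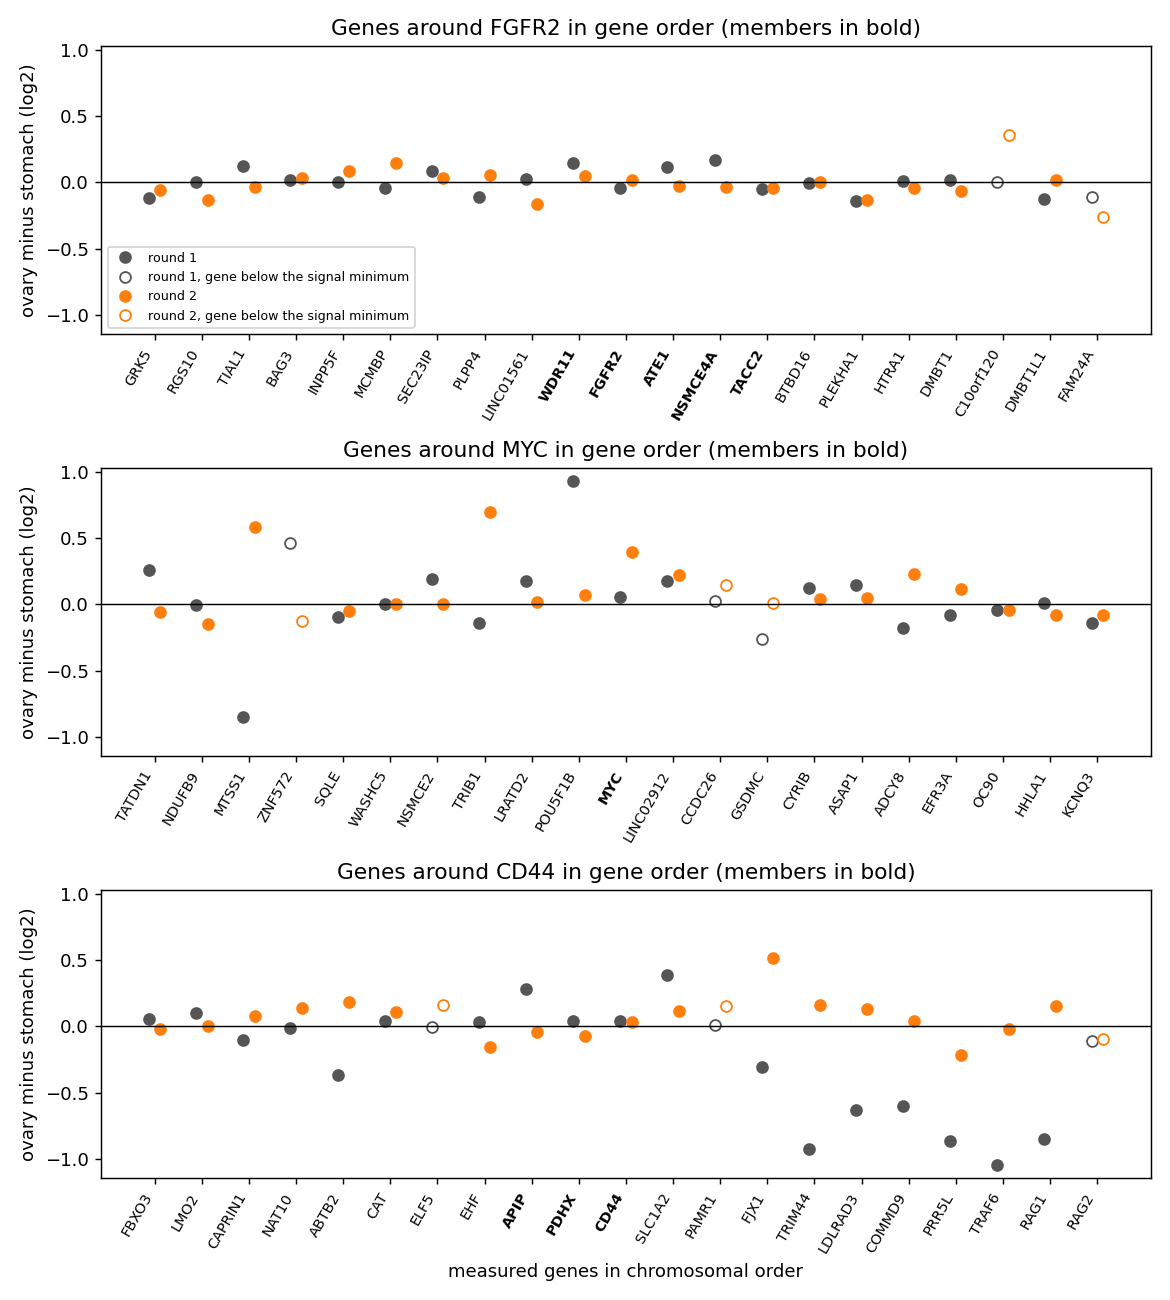
Ovary minus stomach (log2, vertical axis) for the measured genes in chromosomal order (horizontal axis) around FGFR2, MYC and CD44; grey points are round 1, orange points round 2, open points genes below the signal minimum of 5.64, and member names are in bold. In the CD44 panel the 6 genes from TRIM44 to RAG1 lie between -1.05 and -0.60 in round 1 and between -0.22 and 0.16 in round 2.

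Pathway partners of the members were described from fixed lists, none of whose genes passed the limma test in either comparison. Of the FGF receptors, ligands and adaptors, 24 of 35 were measured above the minimum, 11 higher and 13 lower in ovary (median -0.0098). In round 1, 5 were higher and 19 lower in ovary, and in round 2, 15 were higher and 9 lower. Between rounds 9 were higher and 15 lower in round 2 (median -0.061, against -0.019 over all genes tested). After quantile normalization these medians were -0.035 and -0.030, and after median centring -0.037 and 0.0053. The other receptors were weakly varied: FGFR3 gave 7.94 to 8.21, FGFR4 7.27 to 7.42 and FGFR1, near the minimum, 5.68 to 5.75. The ligands FGF8 (-0.42 ± 0.13, limma, adjusted p = 0.299), FGF23 (-0.42 ± 0.13, adjusted p = 0.298) and FGF21 (-0.31 ± 0.11, adjusted p = 0.328) had the largest round differences, from levels of 5.58 to 7.58. Between sites FGF11, an intracellular FGF homologue, stood out through ovary round 2 alone, at 7.16 against 6.65 to 6.71.

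Most genes of a list of MYC targets had lower values in round 2 and higher values in ovary, with 0 of them called by limma in either comparison. The list held 26 genes, mostly of ribosome assembly, with others such as enzymes of metabolism, a cell cycle kinase and TERT; 4 had no row. Of the 22 measured targets, 20 were lower in round 2 (median -0.17), where 7929 of 14547 genes tested were lower (median -0.019). In stomach, where the MYC difference was -0.40, 21 of 22 were lower (median -0.24). In ovary, where it was -0.060, 17 of 22 were lower (median -0.16). Of all 14547 genes tested, 7820 were lower in round 2 within stomach and 7329 within ovary. Between sites 19 of 22 were higher in ovary (median 0.16, against 0.0016 over all genes). Of the 22, 18 were higher in round 1 and 17 in round 2, where 6714 and 7547 of all genes tested were. The target median was 0.12 in round 1, where the MYC difference was 0.054, and 0.13 in round 2, where it was 0.40. The counts over both rounds or both sites were the same under quantile normalization and median centring.

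TERT, the catalytic subunit of telomerase, had the largest round difference of the target list. It read 8.25 in stomach round 1, 7.70 in stomach round 2, 8.42 in ovary round 1 and 7.63 in ovary round 2, so the rounds did not overlap (-0.67 ± 0.092, limma, adjusted p = 0.287). CAD, which starts pyrimidine synthesis, differed by -0.44 ± 0.093 and the ribosome biogenesis factor BOP1 by -0.40 ± 0.10, both with a limma adjusted p of 0.287. Higher in ovary were the helicase DDX21 (0.39 ± 0.11), NOP16 (0.34 ± 0.14) and ODC1, the first enzyme of polyamine synthesis (0.31 ± 0.089), each with a limma adjusted p of 1.00. Whether the MYC level had a part in these differences was not tested.

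MYC dimer partners and antagonists did not share one direction: of 16 measured genes, 6 were higher and 10 lower in round 2 (median -0.020, positive after median centring). MXD1, which competes with MYC for MAX and represses its targets, had the largest round difference. Its values were 9.92 in stomach round 1, 10.49 in stomach round 2, 9.77 in ovary round 1 and 10.50 in ovary round 2. Both round 2 arrays were above both round 1 arrays (0.65 ± 0.083, limma, adjusted p = 0.287). FBXW7, the ubiquitin ligase subunit that targets MYC protein, was 0.37 ± 0.11 higher in round 2 (limma, adjusted p = 0.287). MAX itself ranged from 7.86 to 8.06. MYCN was lower in ovary (-0.34 ± 0.15) and MYCL likewise (-0.21 ± 0.10), each with a limma adjusted p of 1.00.

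**Figure D4:**
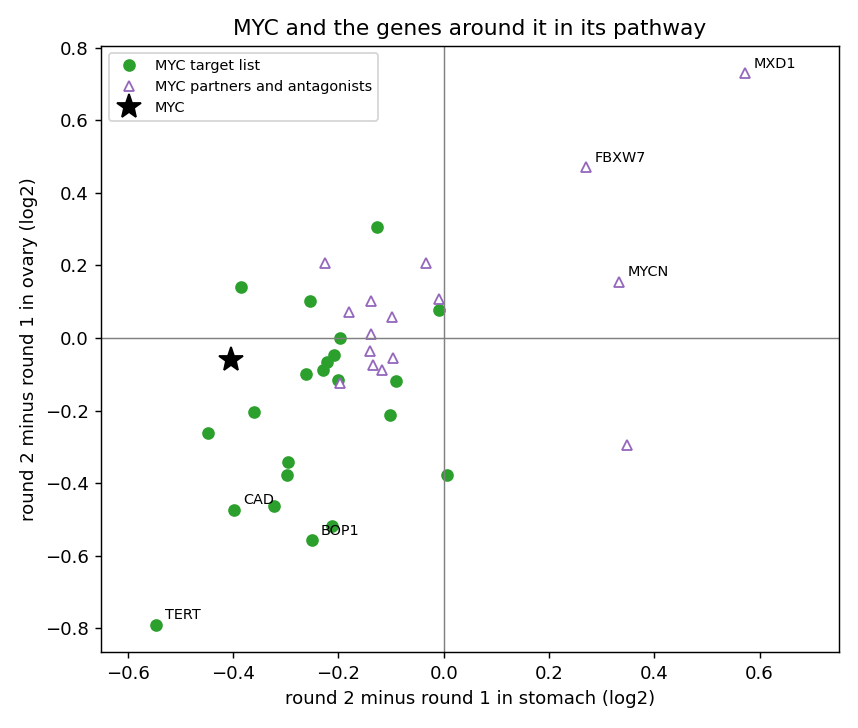
Round 2 minus round 1 in stomach (horizontal axis, log2) against the same in ovary (vertical axis, log2); green circles are 22 measured MYC target genes, open triangles 16 partners and antagonists, and the star is MYC, each point being 1 gene on 4 arrays. Of the targets 21 lie left of 0 and 17 below 0, MYC lies at -0.40 and -0.060, and MXD1 lies at the upper right.

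Among CD44 ligands, cytoskeletal linkers, sheddases and splicing factors, 10 of 19 were measured above the minimum and all 10 were higher in round 2 on average (median 0.13, against -0.019 over all genes tested, of which 6603 of 14547 were higher). The count was the same under quantile normalization and median centring. Within stomach 8 were higher and 1 lower, and within ovary 7 and 2. Several of the 10 differed by less than their standard error, among them MMP9 (0.019 ± 0.076) and MSN (0.028 ± 0.11). The ligands SPP1 and SRGN were below the minimum, and the linker EZR and the splicing factor ESRP1 had no row here. The CD44 difference was -0.092. RDX, which links CD44 to actin, read 5.64 in stomach round 1 and 5.77 in ovary round 1, close to the signal minimum of 5.64. In round 2 it read 6.34 in stomach and 6.19 in ovary (0.55 ± 0.094, limma, adjusted p = 0.287). ADAM17, a protease that sheds cell surface proteins, was 0.35 ± 0.080 higher (limma, adjusted p = 0.287). Between sites 4 were higher and 6 lower in ovary, with the hyaluronan receptor HMMR furthest apart (0.23 ± 0.17), and ESRP2, an epithelial splicing factor acting on CD44 exons, at 0.18 ± 0.11 (both limma, adjusted p = 1.00).

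The partner lists of the other members were small and mixed. Over all genes tested, 50.6% were higher in ovary and 45.4% in round 2. Of 14 measured genes of the pyruvate dehydrogenase complex, its regulators and pyruvate carriers, 10 were higher in ovary and 7 in round 2. The median site difference was 0.032, and 9 were higher in ovary after quantile normalization. The site direction was not kept between rounds: 9 were higher in ovary in round 1 (median 0.087) and 5 in round 2 (median -0.059). DLAT, the E2 core that is held to E3 by PDHX, gave 9.36 in stomach round 1 and 9.61 to 9.81 on the other arrays, and PDP1, a phosphatase that activates the complex, 8.75 in ovary round 2 against 8.05 to 8.32. Of 10 genes of methionine salvage and APAF1 partners, 5 were higher in ovary and 7 in round 2 (median 0.093). ADI1, which acts after APIP in the salvage pathway, differed between rounds by 0.40 ± 0.14 (limma, adjusted p = 0.311) and APAF1 by 0.39 ± 0.16 (limma, adjusted p = 0.348).

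Of 8 SMC5/6 genes, 5 were higher in ovary and 6 in round 2 (median 0.070; 7 after median centring), led between rounds by SLF1 (0.36 ± 0.084, limma, adjusted p = 0.287). Of 8 arginine N-degron genes, 5 were higher in ovary and 4 in round 2, with round differences no larger than that of NTAQ1, an N-terminal amidase (0.15 ± 0.073, limma, adjusted p = 0.399). Of the 5 WDR11 complex and Golgi tether genes, 3 were higher in ovary and 4 in round 2 (median 0.26). C17orf75, a subunit of the WDR11 complex, differed between sites by 0.34 ± 0.11 (limma, adjusted p = 1.00) in the direction of WDR11, and TBC1D23, its tether at the Golgi, by 0.27 ± 0.074 between rounds (limma, adjusted p = 0.287). Of 5 TACC partners, 4 were higher in ovary and 2 in round 2 (3 after median centring and 1 after quantile normalization). The largest difference there was that of CKAP5, a microtubule polymerase, at -0.14 ± 0.10 between rounds (limma, adjusted p = 0.529). In round 1 alone, 5 SMC5/6, 5 N-degron, 4 WDR11 complex and 4 TACC genes were higher in ovary. In round 2 alone these counts were 4, 3, 2 and 2.

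The genes most like FGFR2, MYC and CD44 over the 4 arrays were found by the Euclidean distance between gene-centred log2 values. For FGFR2 these were XKR4 (distance 0.0029), PRIMA1 (0.0077) and COPS9 (0.0077), and 2090 genes lay within 0.1 of it. For CD44 they were KIF26A (0.0095), CEP131 (0.0095) and NPAS1 (0.012), with 1863 genes within 0.1. MYC had fewer close genes, 60 within 0.1, the nearest being DGCR6 (0.014), AP5S1 (0.044) and FAM43A (0.046), each with its lowest value on the stomach round 2 array. With 4 arrays such likeness is a description of these arrays.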

How the data were processed

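RNA from 4 samples was hybridised to Affymetrix arrays after biotin labelling, per the labels' protocols. The authors deposited log2 expression values per probe set; the submitters' processing notes list Affymetrix Expression Console, while no background, scaling or summary setting was given in the sources used here. The scale was read from the values. Of 33297 rows, 19460 carried 1 gene symbol, 1754 several (not used) and 12083 none here; 19429 of the first were matched by gene identifier to RefSeq (GRCh38.p14), used for names and gene order. The highest of a gene's probe sets was kept (769 genes had several), and genes were tested where their mean exceeded 5.64, the 30th percentile over rows.

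Site, round and interaction were each fitted over all 14547 genes without covariates by limma 3.58.1 (R 4.3.3), with eBayes moderation, two-sided p and the Benjamini-Hochberg threshold at 0.05. On simulated data for the site comparison (14547 genes, 200 changed, 10 runs), 2-fold changes were recovered in 38.4% and 4-fold changes in 93.6%. Members, lists and windows were chosen with earlier results of these data known. Genes named are the members, up to 3 per list or window and comparison with the largest mean differences, and 3 like genes for FGFR2, MYC and CD44; others named (the other FGF receptors, MAX, DLAT, LINC02912, SLC1A2 and the run beside CD44 where not so ranked) were chosen after their values were seen. Alternatives were the signal minimum, scaling, probe set choice, prior, replicate block, each array left out and exchanged round 2 sites. Motifs were counted on both strands, and figures drawn with matplotlib 3.10.9.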

Additional observations from a re-analysis of the deposited data

How the results depend on the processing

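No alternative brought a call: 0 genes passed limma's adjusted threshold between sites, between rounds or for the interaction under any setting run, and 0 of the member differences, whose smallest adjusted p over the alternatives was 0.383. With the round as a replicate block between sites, and the site between rounds, 0 genes were called, with 916 and 2358 at an unadjusted p under 0.05 against 378 and 2178 without it. The 2 arrays of round 1 deviated together from their site means (r = 0.411 over genes). With 2 arrays a site the deviations of round 2 mirror these, so this is the correlation of the round differences at the 2 sites. It cannot tell a pairing of samples from a round difference shared by both sites, which the site fit without the block keeps in its spread. Of 207 values of the 18 member differences under alternatives, 190 kept their sign and 17 did not. Quantile normalization gave 0.017 for WDR11 between rounds, and 0.00087 for PDHX and -0.024 for CD44 between sites; median centring gave 0.022 for WDR11 between rounds. With the round 2 site labels exchanged, the site difference was -0.17 for MYC and 0.058 for PDHX. Leaving out each array in turn, site differences ran from -0.036 to 0.011 for FGFR2, from -0.055 to 0.14 for ATE1, from -0.051 to 0.19 for NSMCE4A, from -0.068 to 0.038 for PDHX and from -0.0088 to 0.084 for CD44. Round differences ran from -0.073 to 0.069 for WDR11, from -0.0024 to 0.038 for FGFR2 and from -0.12 to 0.16 for APIP. For MYC they ran from 0.024 to 0.43 between sites and from -0.43 to -0.033 between rounds. Other values that kept their sign but moved by over 1.5 times ran from 0.029 to 0.21 for APIP and from -0.068 to -0.023 for TACC2 between sites. Between rounds they ran from 0.064 to 0.18 for ATE1, from -0.22 to -0.051 for NSMCE4A, from 0.012 to 0.084 for PDHX and from -0.065 to -0.014 for TACC2. The cause was not tested. With 4 arrays, precision is limited by their number.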

Other observations

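The window around CD44 was widened to 25 measured genes a side after the first window had been seen. Of the 40 genes in it above the signal minimum, members left out, 12 were at least 0.3 lower and 8 at least 0.3 higher in ovary than in stomach in round 1, where 11.3% of all genes tested were 0.3 or more apart in either direction. In round 2 the counts were 0 lower and 3 higher, against 9.03% of all genes. The 12 lower genes were the 6 from TRIM44 to RAG1 and FJX1, IFTAP, EXT2, CD82, ABTB2 and PRRG4. The 8 higher genes were SLC1A2, API5, TTC17, HSD17B12, ALKBH3, EIF3M, RCN1 and ELP4. Higher and lower genes lay on both sides of CD44. Ovary round 1 stood apart from all other arrays for EIF3M, a translation initiation factor subunit (11.17 against 10.54 to 10.68), for ALKBH3, a DNA demethylase (9.31 against 8.84 to 8.95), and for EXT2, a heparan sulphate polymerase (9.89 against 10.47 to 10.49). It was lowest for PRRG4 (7.93 against 8.47 to 8.89). For API5, an inhibitor of apoptosis, stomach round 1 was the array apart, at 10.16 against 10.58 to 10.71. The calcium-binding RCN1 was higher in ovary in both rounds, by 0.63 and 0.45.

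Over all chromosomes, runs of at least 4 consecutive tested genes lying 0.4 or more to one side of the mean of the other arrays were counted, a rule also set after seeing the data. There were 4 such runs below and 2 above in ovary round 1, 1 below in ovary round 2, and 0 in either stomach array. The longest held 6 genes, TRIM44 to RAG1 on chromosome 11 and CENPH to MARVELD2 on chromosome 5. The share of genes past 0.4 below was 3.56% in ovary round 1 and 1.31% to 2.02% on the other arrays.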
